A study of Mus musculus with 55 samples.

Results

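The 10 genes described here are grouped under the name RUNX and ETS stem cell factors: Runx1, Runx2, Runx3, Cbfb, Etv6, Erg, Fli1, Ets1, Elf1 and Lyl1. They were taken by gene symbol, and all 10 were found among the 55421 genes of the first count table and among the 35976 genes of the second. The first table holds 46 bulk RNA-seq libraries of 6 bone marrow populations sorted from WT mice and from mice labelled Tet2-/-, with 4 libraries per genotype and population except 3 for WT LT-HSCs and 3 for WT ST-HSCs. The second holds 9 LT-HSC libraries, 3 each from mice labelled WT, Sting-/- and Tet2;Sting DKO. All mice were on a C57BL/6 background.

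Tet2-/- mice were Tet2 f/f, Mx1-Cre animals given poly(I:C) at 4 weeks of age, and those of the first set were analysed 16 weeks after induction. Tet2;Sting DKO mice were Tet2 f/f, Sting-/-, Mx1-Cre animals that also received poly(I:C) at 4 weeks of age, and their wait after induction is not given separately. Sting-/- mice are labelled as Sting knockouts. Mx1-Cre is switched on by interferon in the liver and other tissues as well as in blood cells, so effects of a deletion in other tissues cannot be told apart from those of one in the sorted cells. The sources used here speak of poly(I:C) and of the wait after induction for the mice as a whole, and do not describe the treatment of the sequenced WT mice separately. The populations were sorted from lineage-negative cKit+ cells: LT-HSC (Sca1+ CD48- CD150+), ST-HSC (Sca1+ CD48- CD150-), CMP, GMP and MEP (Sca1-, separated by CD34 and CD16/32) and CLP (intermediate Sca1, CD127+). Replicates are labelled as separate samples with 200 cells each, a number that differs from the one in the study's methods, and the p-values below measure the spread between these libraries. In such bulk samples, fewer cells of a type and less RNA per cell cannot be told apart.

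RUNX proteins bind DNA through the Runt domain and do so more strongly with CBFb, a partner that does not itself touch DNA. Runx1 is needed for the first blood stem cells to form in the embryo, Runx2 for bone formation, and Runx3 in T cells and sensory neurons. ETS factors share a winged-helix domain that recognises a GGAA core. Erg, Fli1 and Etv6 are known for keeping adult stem cells in the marrow, Fli1 also for megakaryocytes and Ets1 for lymphocytes. Lyl1 is not an ETS or RUNX protein but a basic helix-loop-helix factor related to Tal1, and it works in complexes with Lmo2, Gata2, Runx1, Erg and Fli1.

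The 3 RUNX genes share an arrangement of binding motifs at a start site, printed here because it sets these 3 members apart by sequence. In RefSeq windows from 250 bases before to 50 after a start (GRCm38.p6), each holds a pair of ACCACA hexamers in the same orientation that start 8 bases apart. The Runx2 window holds a further copy outside the pair. Runx1 and Runx3 each have another window, at the starts chr16:92697329 and chr4:135152545, that holds no such hexamer on either strand. The motif searched was TGTGGT or its reverse complement ACCACA on both strands, and capitals mark it. The Runx1 site lies at chr16:92826025-92826054 (minus strand, 20 to 49 bases after that start), the Runx2 site at chr17:44814583-44814612 (minus strand, 15 to 44 bases after), and the Runx3 site at chr4:135120503-135120532 (plus strand, between -142 and -113):
Runx1: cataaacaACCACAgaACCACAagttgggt
Runx2: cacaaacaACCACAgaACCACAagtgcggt
Runx3: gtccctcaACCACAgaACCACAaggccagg
This pair was present in 7 of 32851 windows (0.021%), and any single copy of the motif in 16.8%. The spacing was chosen after these sites had been seen, so the share is a description. Windows were given for 8 of the 10 members, with Fli1 and Ets1 not among them.

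The upstream window of Lyl1, the member whose level differed most between genotypes, holds the letters CCGGAA once on each strand (chr8:84701207-84701456, plus strand, GRCm38.p6, the 250 bases before the start site). Capitals mark CCGGAA or its reverse complement TTCCGG, which contain the ETS core and occur in 14.9% of all windows:
Lyl1: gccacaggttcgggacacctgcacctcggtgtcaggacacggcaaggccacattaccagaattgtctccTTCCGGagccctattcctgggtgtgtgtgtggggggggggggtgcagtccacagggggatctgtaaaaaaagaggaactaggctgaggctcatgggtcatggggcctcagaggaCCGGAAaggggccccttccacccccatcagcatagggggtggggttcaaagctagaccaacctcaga
The longer ETS motif CGGAAGT, which 6.42% of all windows hold, was also searched and was absent from the Lyl1 window. A Runx1 window holds CCGGAA as well, at -106. A match of letters is not a measured binding site. The libraries measured RNA only.

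Depth ran from 50458473 to 102148079 counts per library in the first set and from 26776517 to 78682096 in the second, with 13754 to 20964 and 9382 to 11528 genes detected. The summed counts of Tet2 were not lower throughout in libraries labelled Tet2-/- and, being counts over the whole gene, do not check a deleted exon: in CMPs, for example, Tet2 had 6.05 to 25.8 CPM (counts scaled to library size with TMM factors) in the libraries labelled Tet2-/- and 17.3 to 23.5 in WT, and in GMPs 39.5 to 60.1 against 33.0 to 41.2. In the second set Tet2 had 0 to 25.0 CPM in WT (median 0), 1.47 to 41.5 in Sting-/- and 1.29 to 42.4 in Tet2;Sting DKO. Directions below therefore refer to the labels. In the second set, Sting itself had at least 1128 counts in 3 of the 6 libraries whose labels say it is deleted and 0 in 1 WT library, and the Lyl1 and Runx1 results of that set are also given without those 3 libraries, the WT library being kept. Among the CLP libraries, those labelled Tet2-/- replicates 2 and 3 stood apart: replicate 2 had 2434 CPM over 11 T and NK cell markers, of which Cd3e and Cd8a were at 0 in every CLP library, and replicate 3 had 12425 CPM over 8 GMP markers and 1410 CPM over 7 megakaryocyte markers. Replicate 5, which stays in the fits without replicates 2 and 3, had 4283 and 414 CPM of the same lists, where WT CLPs had at most 3189 and 8.36. WT CLPs varied too, with 2922 and 2820 CPM over 6 mast cell and basophil markers in replicates 2 and 3. The LT-HSC marker list summed to 525 to 784 CPM in WT LT-HSCs and to 8.26 to 47.6 in WT CLPs. Rag1, a defining CLP marker, was at 0 in every WT CLP library, while the 8 CLP markers together summed to 1684 to 2397 CPM there and to at most 237 in any other WT population.

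All 10 members passed the test of a difference among the 6 populations, in WT and in Tet2-/- libraries (edgeR F test, adjusted p from 3.70e-10 for Ets1 to 0.0386 for Erg in WT, and from 1.87e-07 for Elf1 to 0.0420 for Runx3 in Tet2-/-). Of all genes tested, 44.6% passed in WT and 40.2% in Tet2-/-. The 2 weakest of these F tests, Erg in WT and Runx3 in Tet2-/-, no longer passed when some single replicate number was left out, nor did Runx1, Runx2 or Cbfb in WT or Cbfb in Tet2-/- (adjusted p then up to 0.268). Without replicate 5, which holds the 1 WT CLP library with Erg counts, the adjusted p of Erg in WT fell instead, to 9.11e-06. Without the low-count filter Runx3 in Tet2-/- had 0.0572. The same replicate numbers recur across the populations, and with the number as a block Erg in WT (adjusted p = 0.0565) and Runx3 in Tet2-/- (0.0939) no longer passed. Within the first set MEPs had the lowest WT mean for 7 members, the exceptions being Erg (lowest in CLPs), Runx3 and Lyl1 (both lowest in LT-HSCs).

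**Figure D1:**
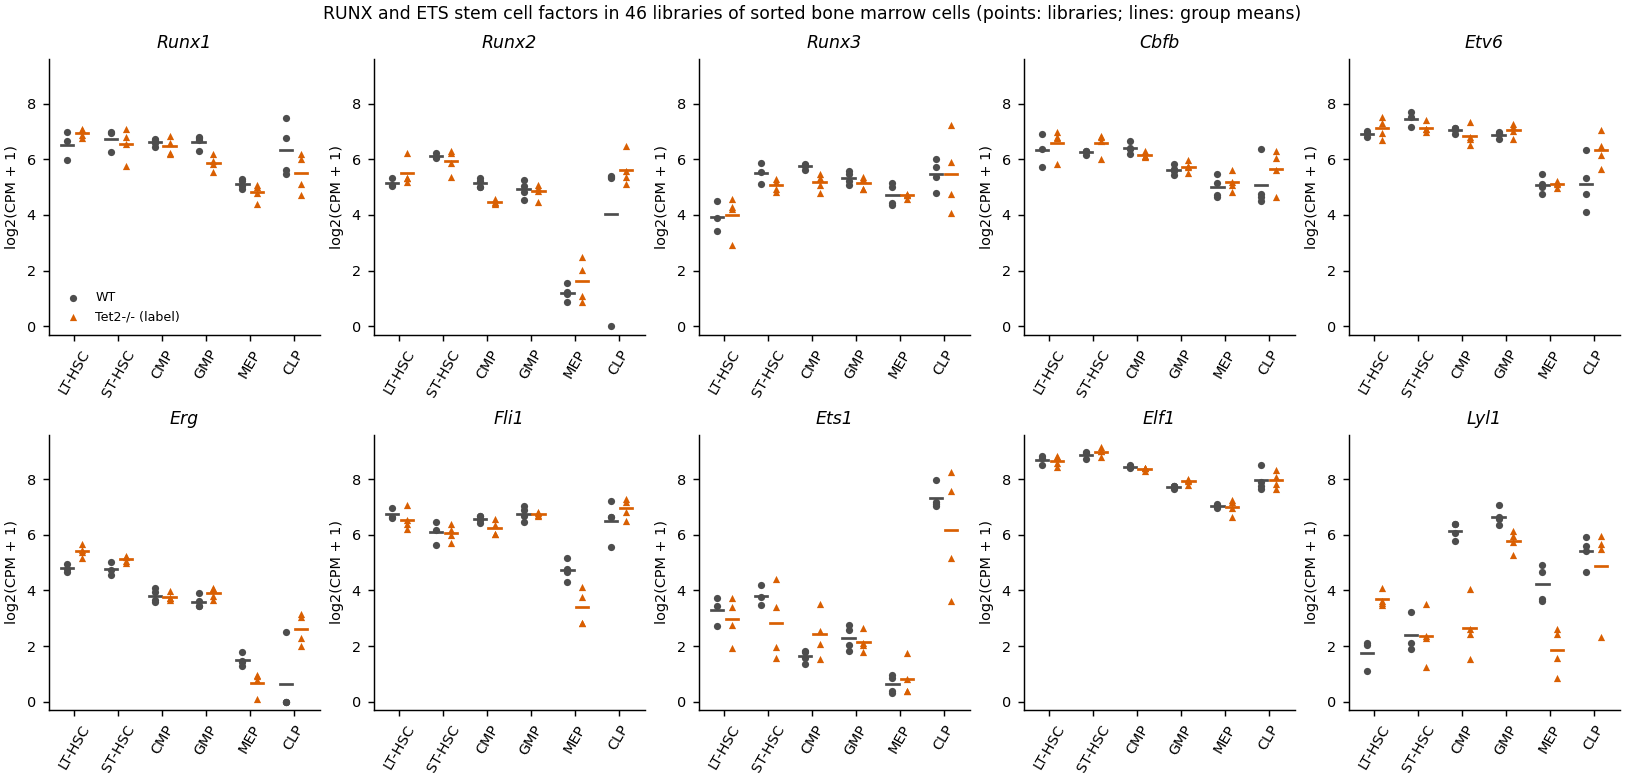
Each panel plots 1 gene as log2(CPM + 1) against population, with a point for each of 46 libraries (grey circles, WT; orange triangles, labelled Tet2-/-) and a line for the mean of these log values. Most members are lowest in MEPs, Ets1 is highest in CLPs, and Lyl1 differs between genotypes in CMPs, GMPs and MEPs.

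Most members were lower in MEPs than elsewhere. Of 50 comparisons of a member between MEPs and another population, 36 passed in WT and 35 in Tet2-/- (adjusted p of 0.05 and at least 2-fold), and MEPs were the lower population in 34 and 35 of them. In WT, 8 of 10 members passed between LT-HSCs and MEPs, where 12.6% of all genes did, 8 between ST-HSCs and MEPs (15.3%), 9 between CMPs and MEPs (6.45%), 6 between GMPs and MEPs (14.7%) and 5 between CLPs and MEPs (30.5%). In Tet2-/- the counts in the same order were 8 (14.1%), 8 (15.4%), 6 (3.62%), 6 (15.7%) and 7 (27.6%). Of all genes, those called with MEPs as the lower population were 7.42%, 8.88%, 5.52%, 10.2% and 14.4% in WT and 8.92%, 9.68%, 3.4%, 10.3% and 15.2% in Tet2-/-. The background includes genes near the detection limit, and the members were picked as factors of stem cells.

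Runx1, the DNA-binding subunit needed for stem cell emergence, had similar WT means in 5 populations and was low in MEPs. Its WT means were 107 ± 27.6 CPM in ST-HSCs (SD, n = 3), 99.4 ± 14.6 in GMPs (n = 4), 96.9 ± 8.52 in CMPs, 94.9 ± 32.0 in LT-HSCs, 93.7 ± 62.5 in CLPs and 33.9 ± 3.85 in MEPs. Only the last neighbours in this order, CLPs and MEPs, passed the test (log2 difference 1.49, SE 0.34, adjusted p = 0.00200). In Tet2-/- libraries the Runx1 means ran from 123 ± 12.98 CPM in LT-HSCs over ST-HSCs, CMPs, GMPs (58.1 ± 10.4) and CLPs (48.4 ± 22.5) to 27.7 ± 5.75 in MEPs (n = 4 each). There 7 of 15 comparisons passed, 3 of them not with MEPs: LT-HSCs above GMPs and CLPs, and ST-HSCs above CLPs.

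In GMPs, Runx1 was lower in Tet2-/- libraries. The WT libraries had 111.4, 106.5, 101.5 and 78.3 CPM and the Tet2-/- libraries 71.1, 55.8, 59.8 and 45.8. Every Tet2-/- GMP library lay below every WT library. The log2 fold change was -0.81 (SE 0.17, adjusted p = 0.0131, exact permutation p = 0.0286), which is under the 2-fold minimum. Over 13 alternative settings it ran from -0.92 to -0.70, with adjusted p up to 0.726 when all 46 libraries shared one fit. The groups overlapped in the other 5 populations, where the change lay between -0.94 (SE 0.55) in CLPs and 0.39 (SE 0.27) in LT-HSCs.

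Runx2, the RUNX gene best known from bone, was nearly absent from MEPs. Its WT level was 68.6 ± 4.00 CPM in ST-HSCs (SD, n = 3) and 1.32 ± 0.448 in MEPs (n = 4), a ratio of 52.1. In Tet2-/- libraries the ratio of the same populations was 25.8. All 5 comparisons of MEPs with another population passed in each genotype. WT CLP replicate 4 had 0 counts of Runx2, while the other 3 WT CLP libraries had 38.8, 40.5 and 40.8 CPM.

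In CMPs, Runx2 was lower in the Tet2-/- libraries, at 23.03, 20.01, 21.0 and 20.6 CPM against 30.7, 39.5, 31.4 and 36.0 in WT. The 2 groups did not overlap, and the Tet2-/- values were the tighter of the 2. The log2 fold change was -0.72 (SE 0.15, adjusted p = 0.0176, exact permutation p = 0.0286), again under 2-fold. Its size held over 13 alternatives (-0.77 to -0.64), but its adjusted p rose to 1 in one fit of all 46 libraries. With the replicate number as a block, Runx2 in CMPs did not pass the adjusted p either.

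Runx3, known from T cell development, was the only RUNX gene lowest in LT-HSCs. It had 13.95, 9.80 and 21.5 CPM in WT LT-HSCs and 53.4, 53.8, 48.3 and 56.2 in WT CMPs. The log2 difference of LT-HSCs minus CMPs for Runx3 was -1.83 (SE 0.33, adjusted p = 0.00144). In CMPs the Tet2-/- libraries had 39.0, 43.8, 32.7 and 26.6 CPM of Runx3, all below the WT libraries. That change was -0.59 (SE 0.17) with an adjusted p of 0.072, so it did not pass. In Tet2-/- CLPs Runx3 ranged from 15.9 to 148 CPM, and without replicates 2 and 3 its change against WT turned from 0.44 to -1.16 (edgeR adjusted p above 0.99 in both fits).

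The mixture of the 3 RUNX genes can be read as shares of their counts per kilobase of exon. Runx1 made up 52.3% ± 8.57 of this sum in WT LT-HSCs (SD, n = 3), 35.8% ± 2.75 in WT CMPs and 42.3% ± 4.41 in WT GMPs (n = 4). Runx2 was 1.79% in WT MEPs and 3.52% in Tet2-/- MEPs, where Runx3 took 63.3% and 66.2%. Which gene led depended on the division by length. In plain counts Runx1 was 55.6% and Runx3 42.2% in WT MEPs, and 52.6% and 28.8% in WT CMPs.

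Between genotypes the difference in the Runx1 share had opposite signs in CMPs and GMPs. It was 43.7% ± 3.27 in Tet2-/- CMPs, 7.90 percentage points above WT with no overlap (exact permutation p = 0.0286, adjusted over 6 populations 0.171). In GMPs it was 32.5% ± 4.33, below WT (difference -9.79 points, exact permutation p = 0.0571, adjusted 0.171). Neither difference passed after adjustment. The exact p of 0.0286 in CMPs is the smallest this test can give. A full separation in CMPs alone therefore could not pass over 6 populations, and the adjusted values do not decide whether the shares differ.

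**Figure D2:**
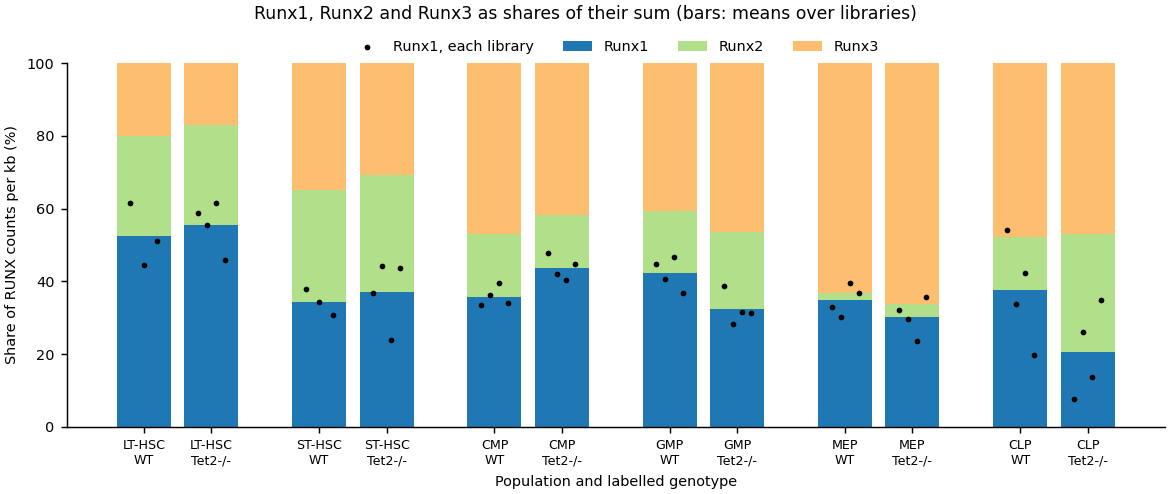
Stacked bars give the mean shares (%) of Runx1, Runx2 and Runx3 in the sum of their counts per kilobase, for 6 populations and both labelled genotypes, and black points give the Runx1 share of each library. The Runx1 mean is 52.3% in WT LT-HSCs, and Runx2 is 1.79% in WT MEPs.

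Cbfb, the common partner of the 3 RUNX proteins, had the smallest range of population means of the 10 members in both genotypes. Its WT means ran from 84.5 ± 33.6 CPM in LT-HSCs (SD, n = 3) to 31.7 ± 9.14 in MEPs (n = 4), a ratio of 2.67, and the ratio in Tet2-/- libraries was 2.81. No neighbours in this order passed the test, and neither did any genotype comparison, where the log2 change lay between -0.27 in CMPs and 0.49 in CLPs. WT CLP replicate 2 had 82.5 CPM of Cbfb and the other 3 WT CLP libraries 21.7 to 26.3.

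Etv6, a repressor that stem cells need to stay in the adult marrow, was high in stem cells, CMPs and GMPs. These 4 populations had 104 to 205 CPM in WT, while MEPs had 25.99 to 42.8 and CLPs 16.1 to 79.7. All 8 comparisons of one of the 4 with MEPs or CLPs passed in WT. In Tet2-/- libraries Etv6 was again lowest in MEPs, at 30.1 to 35.8 CPM. No genotype comparison passed in the edgeR fits of each population, and the largest change was 1.07 (SE 0.56, adjusted p above 0.99) in CLPs. There one fit of all 46 libraries called Etv6 (log2 change 1.07, SE 0.29, adjusted p = 0.0173).

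Erg, an ETS factor that keeps stem cells from differentiating, had its highest WT mean in LT-HSCs and its lowest in CLPs. The WT means were 26.8 ± 2.74 CPM in LT-HSCs, 26.6 ± 4.47 in ST-HSCs, 13.2 ± 2.34 in CMPs, 11.3 ± 1.93 in GMPs and 1.84 ± 0.441 in MEPs. No 2 neighbours in this order passed the test in WT, nor did any comparison of Erg with MEPs, and the 2 of 15 that passed were LT-HSCs and ST-HSCs against CLPs. Of the 4 WT CLP libraries 3 had 0 counts and replicate 5 had 4.72 CPM, so its CLP values rest on 1 library.

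Erg was higher in every Tet2-/- LT-HSC library. WT LT-HSCs had 24.3, 29.7 and 26.3 CPM of Erg, and Tet2-/- LT-HSCs had 42.4, 34.8, 50.5 and 41.0. The groups did not overlap, yet the log2 fold change of 0.67 (SE 0.25) had an adjusted p of 0.780 (exact permutation p = 0.0286, adjusted over 60 tests 0.156). The exact permutation p of 0.0286 is the smallest possible there, so Erg alone could not have passed over 60 tests. The fold change lay between 0.59 and 0.76 in 12 alternatives, none of which called it. In MEPs the order was reversed: WT had 1.42, 1.73, 2.46 and 1.75 CPM and Tet2-/- had 0.952, 0.882, 0.0604 and 0.704, a log2 change of -1.46 (SE 0.74, adjusted p = 0.379) without overlap. The difference in the Erg genotype effect among populations did not pass either (adjusted p = 0.583). It passed without WT replicate 5 (adjusted p = 3.2e-07), the number of the 1 WT CLP library with Erg counts, and was 0.0545 without the CLP libraries.

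Fli1, which drives megakaryocyte genes, was even across 5 populations and low in MEPs. Its WT means ran from 109 ± 18.5 CPM in GMPs (SD, n = 4) to 69.3 ± 19.9 in ST-HSCs (n = 3), and MEPs had 25.98 ± 6.64 (n = 4). ST-HSCs and MEPs, the last neighbours, differed by 1.47 on the log2 scale (SE 0.29, adjusted p = 0.00118), and no other neighbours passed. In Tet2-/- libraries the ratio of the highest mean (CLPs, 125 CPM) to the lowest (MEPs, 10.3) was 12.1.

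In MEPs, Fli1 was lower in the Tet2-/- libraries. WT had 18.8, 34.7, 26.4 and 24.1 CPM and Tet2-/- had 16.5, 12.7, 6.07 and 6.11. The groups did not overlap, with the nearest libraries at 18.8 and 16.5. The log2 fold change of -1.33 (SE 0.36) had an adjusted p of 0.0707 and did not pass. It passed with DESeq2, in one fit of all 46 libraries and without Tet2-/- replicate 2, and ranged from -1.68 to -1.15 over 13 alternatives.

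Ets1, a lymphoid ETS factor, was the member most restricted to one population. WT CLPs had 250, 130, 143 and 136 CPM, while no library of the other 5 populations had more than 20.2. The ratio of CLPs to MEPs was 283 in WT. In WT, CLPs were higher than each of the other populations, with a log2 difference of Ets1 to ST-HSCs, the next population, of 3.59 (SE 0.49, adjusted p = 2.08e-05). In Tet2-/- libraries the same 5 comparisons passed, with 3.94 (SE 0.97, adjusted p = 0.00637) to ST-HSCs. Without CLP replicates 2 and 3 only that with MEPs still passed (MEPs minus CLPs -4.47, SE 0.95, adjusted p = 0.00149), and ST-HSCs minus CLPs was -1.33 (SE 0.91, adjusted p = 0.305). Without replicate 3 alone the Ets1 comparisons with LT-HSCs and ST-HSCs did not pass (adjusted p = 0.0600 and 0.0650).

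The Tet2-/- CLP libraries disagreed on Ets1, at 307, 189, 35.2 and 11.3 CPM. Replicates 2 and 3, which stood apart by their markers, were the 2 highest, and the lowest, 11.3, lay below a Tet2-/- ST-HSC library at 20.2. The log2 change against WT was -0.26 (SE 0.84) with them and -2.85 (SE 0.60, adjusted p = 0.757) without them. How the marker differences bear on Ets1 was not tested.

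Elf1, an ETS factor with broad expression in blood cells, had the highest mean level per kilobase of exon in 5 of the 6 WT populations. It reached 62.0 CPM per kb in WT LT-HSCs, where Fli1 followed at 30.5 and Cbfb at 24.3. In WT GMPs Lyl1 led instead, at 56.5 CPM per kb against 31.3 for Elf1. Its WT level was 502, 494 and 422 CPM in ST-HSCs and 130, 138, 123 and 130 in MEPs. In GMPs the Tet2-/- libraries had 257, 250, 223 and 241 CPM, all above the WT libraries at 197 to 216, but the log2 change was 0.17 (SE 0.10, adjusted p = 0.425).

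In the edgeR fits of each population, Lyl1 was the 1 member called between genotypes, in CMPs and in MEPs. In WT libraries of the first set it was higher in CMPs and GMPs than in LT-HSCs. LT-HSCs had 3.29, 1.17 and 3.11 CPM, CMPs 54.1, 66.3, 82.0 and 81.9, and GMPs 98.5, 93.8, 81.5 and 133. The ratio of the GMP to the LT-HSC mean was 40.3, and 12 of the 15 comparisons between WT populations passed, LT-HSCs against CMPs among them (log2 difference -4.82, SE 0.54), where 5.53% of all genes passed. The neighbours that did not pass were GMPs and CMPs, CMPs and CLPs, and ST-HSCs and LT-HSCs. WT LT-HSCs of the second set, scaled separately, had 66.8 ± 37.5 CPM of Lyl1 (SD, n = 3). The low place of LT-HSCs in this order therefore rests on the first set alone.

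In CMPs, the Tet2-/- libraries had 15.7, 1.91, 5.08 and 4.39 CPM of Lyl1. All 4 lay below the lowest WT CMP library. The log2 fold change was -3.41 (SE 0.57, adjusted p = 0.00660, exact permutation p = 0.0286). It was called in 13 of 13 alternatives, with values from -4.23 to -3.10 and adjusted p up to 0.0327. Lyl1 was the 1 member called in CMPs, where 4.57% of all genes were called, 3.92% lower and 0.654% higher.

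In MEPs Lyl1 fell as well, from 11.8, 11.3, 29.2 and 24.5 CPM in WT to 1.98, 0.791, 4.44 and 5.17 in Tet2-/-. The groups did not overlap. The log2 fold change was -2.62 (SE 0.59, adjusted p = 0.0317). The call was lost when Tet2-/- replicate 2 or 4, or WT replicate 2, 4 or 5 was left out, with values then between -2.85 and -2.36 and adjusted p up to 0.0921.

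In GMPs Lyl1 passed the adjusted p but not the fold minimum. Tet2-/- GMPs had 37.9, 53.0, 69.5 and 60.5 CPM of Lyl1, all below WT, and the log2 fold change was -0.91 (SE 0.19, adjusted p = 0.0160), short of 2-fold. Over 13 alternatives the value ranged from -1.05 to -0.77, with an adjusted p up to 1 in one fit of all 46 libraries.

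In stem cells and CLPs edgeR did not call Lyl1. In LT-HSCs the Tet2-/- libraries had 15.9, 10.8, 10.0 and 11.4 CPM of Lyl1, each more than any WT library, for a log2 fold change of 2.26 (SE 0.53, adjusted p = 0.445, exact permutation p = 0.0286) that edgeR did not call and DESeq2 did (adjusted p = 0.000330). ST-HSCs overlapped, at 4.09, 3.86, 1.40 and 10.5 against 8.43, 2.75 and 3.30 CPM (log2 change 0.06, SE 0.78). CLPs overlapped too, with 4.08, 61.8, 44.2 and 50.4 CPM in Tet2-/- and 24.2 to 60.4 in WT. Without the CLP replicates 2 and 3 that stood apart, the Lyl1 change in CLPs went from -0.10 to 0.09.

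The genotype effect on Lyl1 differed among the 6 populations (edgeR interaction F test, adjusted p = 0.00121), and it was the only member for which this test passed. Of all genes, 2.65% passed. Leaving out each replicate number gave an adjusted p between 0.0001 and 0.0265 for Lyl1.

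**Figure D3:**
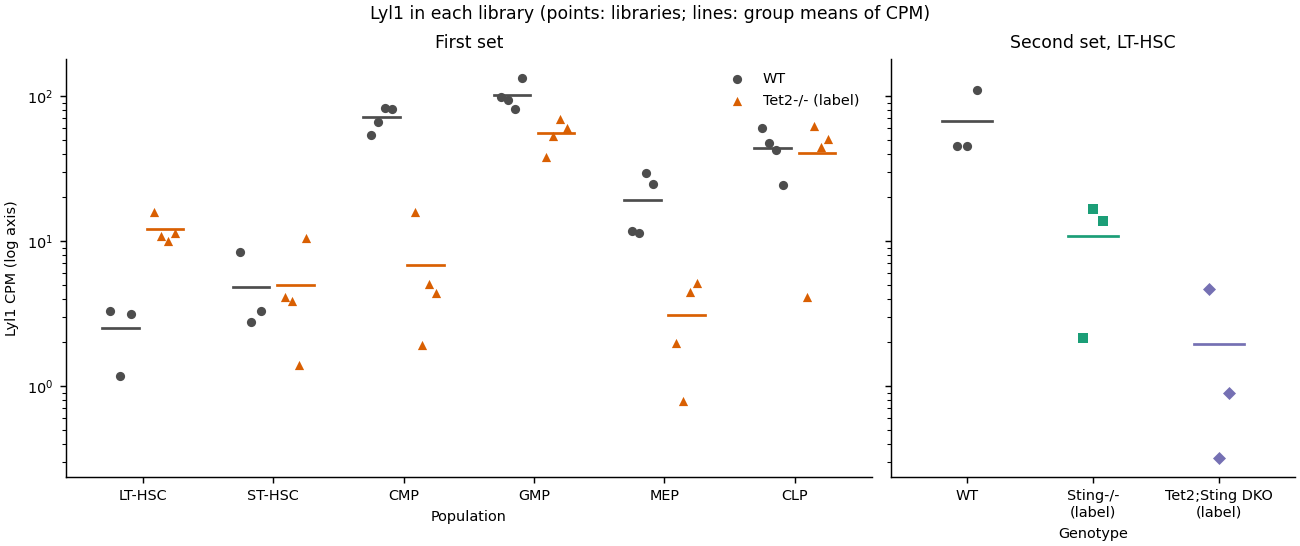
Lyl1 CPM on a log axis is shown for each library (points) with the mean of each group (lines), by population for WT (grey circles) and labelled Tet2-/- (orange triangles) on the left, and for the 3 genotypes of the second LT-HSC set on the right. CMPs labelled Tet2-/- lie between 1.91 and 15.7 CPM and WT CMPs between 54.1 and 82.0.

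Lyl1 (ENSMUSG00000034041, chr8:84701457-84704715, plus strand, mm10) has 1800 exon bases, of which 4 overlap an exon of Nfix on the opposite strand. Nfix, a factor of blood stem cells, had 13.3 to 26.6 CPM in Tet2-/- CMPs and 13.5 to 27.7 in WT CMPs. In GMPs Nfix was higher in Tet2-/- libraries (15.96 to 19.2 against 7.74 to 12.2), opposite to Lyl1, and in MEPs it overlapped (12.3 to 15.6 against 8.71 to 14.3). In LT-HSCs its means differed in the direction of those of Lyl1, at 24.8 CPM in Tet2-/- and 18.1 in WT (ranges overlapping). In the second set Nfix had 25.4 to 51.1 CPM in WT, 20.6 to 28.9 in Sting-/- and 8.62 to 23.7 in Tet2;Sting DKO, with means in the same order as those of Lyl1. The part of shared reads was not tested. Shared exon bases on opposite strands were 5.87% of the exon length for Runx2 (with Runx2os1), 4.85% for Elf1 (with Wbp4), 2.26% for Etv6 and 0.88% for Runx1.

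Counts of the other members give the scale of these differences. No member was called in LT-HSCs, ST-HSCs, GMPs or CLPs (edgeR), where 0.0245%, 0.0185%, 4.37% (4.06% lower and 0.308% higher) and 0.00766% of all genes were, and Lyl1 alone in MEPs (4.36%, 4.21% lower). At an unadjusted p under 0.05, 5.16%, 6.13%, 17.3% and 3.65% of genes passed in these 4 populations, and of the members 2 (Erg and Lyl1), 0, 2 (Runx1 and Lyl1) and 0. DESeq2 called 1 member in LT-HSCs and 0 in the other 3. Of all genes, DESeq2 called 237 in LT-HSCs, 331 in ST-HSCs and 1068 in GMPs, and its count in CLPs is given below. Without the fold minimum, CMPs had 2 members (Lyl1 and Runx2) where 6.89% of genes passed and GMPs 2 (Runx1 and Lyl1) where 6.56% did, and MEPs 1 (Lyl1) where 5.66% did. Groups did not overlap for 2 members in LT-HSCs (Erg and Lyl1, both higher, where 7.08% of genes did not overlap), 3 in CMPs (15.8%), 3 in GMPs (13.3%), 3 in MEPs (13.0%) and none in ST-HSCs (8.14%) or CLPs (3.89%). Over 60 exact permutation tests of single members, the lowest adjusted p was 0.156. The smallest unadjusted p these tests can give is 0.0286, so a member without overlap could not pass on its own. The adjusted value therefore does not decide whether single members differ.

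**Figure D4:**
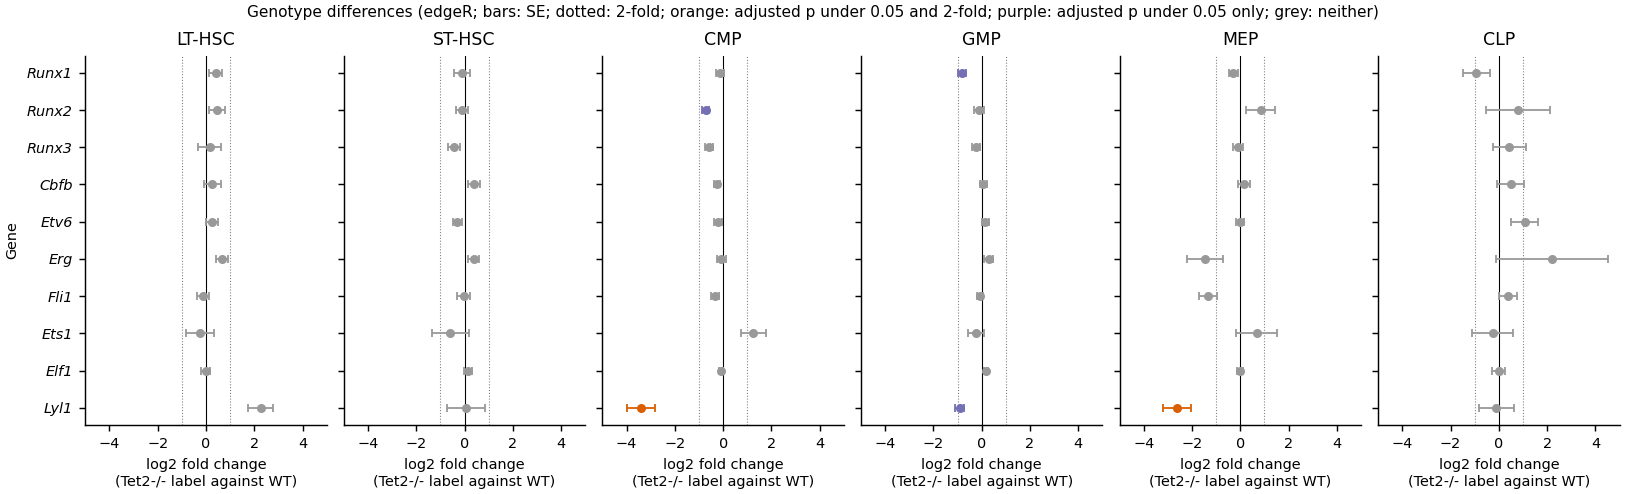
Each panel gives, for 1 population, the log2 fold change of labelled Tet2-/- against WT (x axis, edgeR) for the 10 members, with bars of 1 SE and dotted lines at 2-fold. Lyl1 in CMPs (-3.41) and MEPs (-2.62) are the points called, and Runx2 in CMPs and Lyl1 and Runx1 in GMPs passed the adjusted p only.

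Marker lists and the mitochondrial share moved with some of these results. In CMPs, where Lyl1 was called lower and Runx2 passed the adjusted p alone, the 8 MEP markers summed to 3960 to 7635 CPM in Tet2-/- libraries and 1082 to 2523 in WT, with Car1, Car2 and Epor called higher and Klf1 called lower (log2 change -1.51). The mast cell and basophil list was also higher there (256 to 536 against 146 to 189 CPM), with 3 of 5 tested genes above 0 and Cpa3 called higher (log2 change 1.44). The LT-HSC list overlapped (115 to 160 against 94.1 to 140 CPM), with 4 of its 10 genes above 0, a median of -0.09 and Mllt3 called higher (1.44). The GMP list summed to 3481 to 3791 against 3779 to 5284 CPM, with 7 of its 8 genes below 0 and a median of -0.36, and the 5 CLP markers tested were all below 0 (median -0.97, sums 44.9 to 71.5 against 61.8 to 147), with none called in either list. In GMPs, where Runx1 and Lyl1 were lower, the LT-HSC list summed to 32.8 to 48.7 CPM against 21.4 to 27.7 in WT, with 7 of 9 tested genes above 0 and a median of 0.33. The MEP list summed to 154 to 198 against 116 to 153, with 5 genes above 0, 3 below and a median of 0.07 beside 0.03 over all genes, and no gene of these lists was called. The mast cell and basophil list overlapped in sum, with 4 of 5 tested genes below 0, a median of -1.34 and Ms4a2 called lower (log2 change -1.95). In MEPs, where Lyl1 was lower, the MEP list overlapped (18804 to 24469 against 17789 to 19911 CPM) with 5 of its 8 genes above 0 and 1, Klf1, called lower (log2 change -3.13). Of 6 erythroblast markers tested there, with a median of -1.01, 2 were called lower, Hba-a2 (-1.47) and Hba-a1 (-1.38). The 7 megakaryocyte markers overlapped in sum (21.4 to 87.5 against 23.3 to 175 CPM), with 6 of 7 below 0, a median of -0.72 and Gp1bb called lower, and the LT-HSC list summed to 111 to 130 against 90.9 to 110 CPM, with 3 of 6 tested genes above 0 and a median of -0.16. In LT-HSCs, where Erg and Lyl1 did not overlap but did not pass, 7 megakaryocyte markers summed to 158 to 412 CPM against 432 to 451 in WT, with 3 of the 7 above 0, a median log2 change of -0.10 and none called. The LT-HSC list overlapped there (760 to 947 against 525 to 784 CPM), with 9 of its 10 genes above 0, a median of 0.34 beside 0.06 over all genes, and none called. The mitochondrial share of counts was higher without overlap in Tet2-/- CMPs (7.85% to 8.37% against 5.94% to 6.57%), GMPs (4.74% to 5.09% against 3.64% to 4.60%) and ST-HSCs (10.01% to 13.1% against 8.73% to 9.02%). The part of these lists and shares in the results was not tested.

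In the LT-HSCs of the second set, Lyl1 passed no edgeR test. WT had 44.9, 45.5 and 110 CPM, Sting-/- 2.14, 16.7 and 13.7, and Tet2;Sting DKO 4.65, 0.321 and 0.897. All 6 libraries of the labelled knockouts lay below the 3 WT libraries. The log2 change of Tet2;Sting DKO against WT was -5.14 (SE 1.56, adjusted p = 0.195), that of Sting-/- against WT -2.61 (SE 1.19, adjusted p = 0.9999) and that of Tet2;Sting DKO against Sting-/- -2.43 (SE 2.15, adjusted p = 0.999). The comparisons share libraries, the titles of the WT libraries alone carry the mark "2nd", whose meaning is not given and which cannot be told apart from genotype, and with 3 against 3 the exact permutation test cannot give a p under 0.1. Without the 3 knockout-labelled libraries with 1128 to 6333 counts of Sting the first was -4.80, with 2 Tet2;Sting DKO libraries left. The other two were then -1.99 and -2.64 with 1 Sting-/- library left, whose spread is taken from the other group, so they are no check. WT LT-HSCs of the first set had 1.17 to 3.29 CPM of Lyl1. The tables were scaled separately, so this gap was not tested.

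Runx1 passed no edgeR test in the second set either. WT had 92.5, 87.5 and 94.8 CPM, Sting-/- 36.5, 37.2 and 28.3, and Tet2;Sting DKO 66.8, 47.2 and 42.9. The 3 groups did not overlap, with the Tet2;Sting DKO libraries between the others. The change of Sting-/- against WT was -1.41 (SE 0.63, adjusted p = 0.9999), which DESeq2 called and edgeR did not. Tet2;Sting DKO against Sting-/- gave 0.63 (SE 0.93, adjusted p = 0.999). Tet2;Sting DKO against WT gave -0.89 (SE 0.61, adjusted p = 0.686), and -0.76 (SE 0.68, adjusted p = 0.738) without the Tet2;Sting DKO library that held Sting counts, with 2 left. Without the 2 such Sting-/- libraries and, in the second, that Tet2;Sting DKO library, the values of Sting-/- against WT and of Tet2;Sting DKO against Sting-/- were -1.28 and 0.68, with 1 Sting-/- library left in both, so the spread came from the other group alone and they are no check of the result.

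Among the other members of the second set, Runx2 ran from 0.0279 to 22.4 CPM in Tet2;Sting DKO and Runx3 was at 0 in 2 of 3 WT libraries, while Elf1 was 554 ± 92.9 CPM in WT and 645 ± 71.4 in Tet2;Sting DKO (SD, n = 3). No member was called in any of the 3 comparisons (edgeR), of 9 tested between Tet2;Sting DKO and Sting-/- (0.159% of genes called, 8.3% at an unadjusted p under 0.05), 9 between Tet2;Sting DKO and WT (0.657%, of which 0.041% of genes were higher, and 13.2%) and 10 between Sting-/- and WT (0% and 4.71%, while DESeq2 called 414 genes). With any 1 library left out, the 15 genes called in the first of these fell to 0 and the 64 in the second to 2 to 41. Groups did not overlap for 1 member in the first of these (18.8% of genes), 3 in the second (Runx1, Lyl1 and Cbfb, 25.1%) and 2 in the third (13.5%).

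Lyl1, Runx1, Erg and Fli1 belong to a stem and progenitor network of 10 factors with Tal1, Lmo2, Gata2, Meis1, Spi1 and Gfi1b. In CMPs 3 of the 10 were called lower and none higher in Tet2-/- libraries, where 3.92% of all genes were called lower: Lyl1, Gata2 (log2 change -2.86, SE 0.51, adjusted p = 0.00944) and Spi1 (-3.08, SE 0.19, adjusted p = 2.89e-05). Spi1 encodes PU.1, an ETS factor of myeloid and B cells, and had 9.37 to 16.3 CPM against 89.4 to 119 in WT. In GMPs 2 of 10 were called lower (4.06% of all genes), Spi1 (-2.61) and Gata2 (-1.13, adjusted p = 0.0479), and in MEPs 2 of 10 (4.21%), Spi1 (-3.45, adjusted p = 0.00300) and Lyl1. The median change of the network was -0.24 in CMPs, -0.35 in GMPs and -1.11 in MEPs, beside 0.03, 0.03 and 0.05 over all genes. The marker lists and mitochondrial shares that differed, given above, come from the same libraries. Their part in the change of the network was not tested. With edgeR none was called in LT-HSCs, ST-HSCs or CLPs (unadjusted p under 0.05 for Lyl1, Erg and Gata2 in LT-HSCs and Gata2 in ST-HSCs), while of the 4 members among them DESeq2 called Lyl1 in LT-HSCs. In the second set edgeR called none of the 10. Against WT, 6 were below 0 and 4 above in Tet2;Sting DKO, and 8 below and 2 above in Sting-/-. Spi1 had 120 to 163 CPM in WT, 25.7 to 53.7 in Sting-/- and 0.126 to 5.75 in Tet2;Sting DKO. Gata2 means were 155, 67.0 and 29.9 CPM. WT LT-HSCs of the first set had 9.05 to 14.4 CPM of Spi1 and 5.62 to 9.75 of Gata2, and this gap was not tested. The lists were written with earlier results of these data known.

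**Figure D5:**
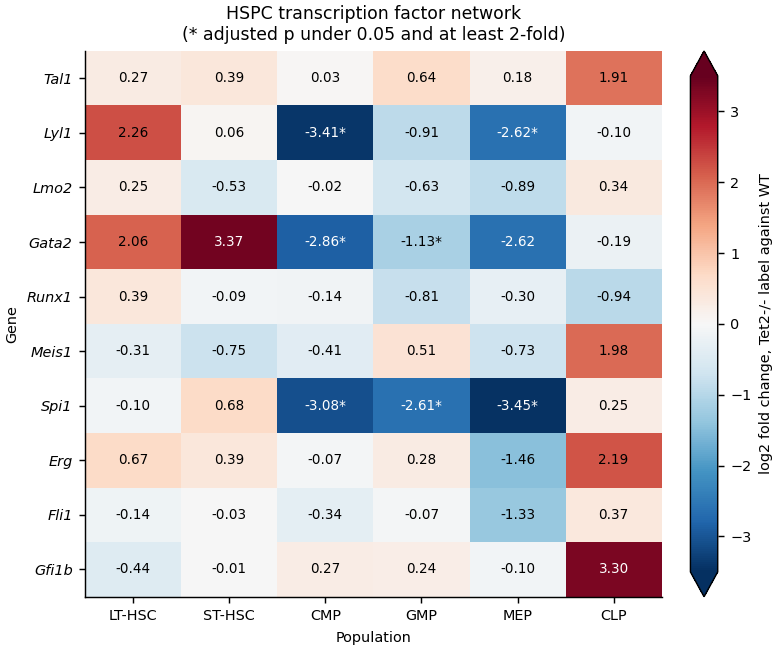
The colour and number in each cell give the log2 fold change of labelled Tet2-/- against WT for 10 network factors (lines) in 6 populations (columns), and asterisks mark an adjusted p under 0.05 with at least 2-fold. Spi1 is marked in CMPs (-3.08), GMPs (-2.61) and MEPs (-3.45), and Lyl1 in CMPs and MEPs.

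Calls among cofactors and targets of the RUNX members were 0 to 2 per list and population, beside 4.57%, 4.37% and 4.36% of all genes called in CMPs, GMPs and MEPs. Of 21 RUNX cofactors and regulators, Cbfa2t2, a corepressor of the ETO family, was called lower in GMPs (-1.44, adjusted p = 0.0429, 18 tested), and Hipk2, a kinase that phosphorylates Runx1, was called higher in MEPs (1.11, adjusted p = 0.0291, 18 tested). Of 26 RUNX target genes, Spi1 was called lower in CMPs, GMPs and MEPs, Myh10, a nonmuscle myosin that RUNX1 represses in megakaryocytes, was called higher in CMPs (2.44, adjusted p = 0.0417), and Hmga2, a chromatin protein of fetal stem cells, was called higher in GMPs (2.04, adjusted p = 0.0394). The target medians were -0.25 in CMPs, 0.22 in GMPs and -0.10 in MEPs.

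Of 19 ETS target genes of megakaryocytes and endothelium, 3 were called higher in GMPs: Selp (1.23, adjusted p = 0.0169), Itga2b (1.121, adjusted p = 0.0179) and Tie1 (1.08, adjusted p = 0.00777), with a list median of 0.62 over 17 tested and 0.308% of all genes called higher. The 7 megakaryocyte markers, Itga2b among them, summed to 72.9, 26.3, 128 and 134 CPM in these Tet2-/- GMPs and to 24.0 to 64.5 in WT, with a median change of 0.65 over 6 tested, and their part was not tested. In CLPs none of the 11 tested was called, the median was 2.64 and all 11 were above 0, in libraries where megakaryocyte markers reached 1410 and 414 CPM in Tet2-/- replicates 3 and 5. Gp1bb, part of the platelet receptor for von Willebrand factor, was called lower in CMPs (-4.22, 0.702 to 1.097 CPM against 10.3 to 24.5) and in MEPs (-4.56). The rest of this list did not follow it. Its median was -0.02 in CMPs (6 above 0, 10 below) and -0.004 in MEPs (7 above, 8 below). The 7 megakaryocyte markers in CMPs had a median of 0.19, with 4 above 0 and 3 below and overlapping sums (493 to 1389 against 529 to 842 CPM). Of 21 other ETS family genes, 12 were tested in each of CMPs, GMPs and MEPs, and Spi1 was the only one called there. Of 11 LYL1 partners, Lmo1 was called lower in GMPs (-3.88, adjusted p = 0.000134) and Tcf12, an E protein, in MEPs (-1.63, adjusted p = 0.0137). The partner medians were -0.08 over 9 tested in GMPs and 0.05 over 8 tested in MEPs. None of these lists had a called gene in LT-HSCs, ST-HSCs, CLPs or the second set (edgeR). For Tet2;Sting DKO against Sting-/- only 3 of 183 simulated 4-fold changes were recovered, so an absence of calls there says little.

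Genes whose group means followed a member most closely were ranked by Pearson's r of log2 means over 12 groups, among about 6630 genes. The 12 points are the same 6 populations in both genotypes, from libraries scaled together, so r is a description. Lyl1 was followed by Idh2 (r = 0.95), Ssbp4 (0.93) and Mfsd1 (0.93), and Ets1 by Fam102a (0.98), Fam214a (0.98) and Rora (0.97). Runx2 went with Akap13, Elk3 and Cd27 (0.97 each), Runx1 with Myo5a (0.92), Hdgfl3 (0.92) and As3mt (0.91), and Runx3 with Dock10 (0.89), Itgal (0.88) and BC035044 (0.88). Erg went with Tmem159 (0.99), 4930555A03Rik (0.98) and Lyz2 (0.97), and Etv6 with Adgrl4, BC028528 and Alox5ap (0.98 each). Fli1 went with Cers5, Slc2a1 and Bin2 (0.95 each), Elf1 with Sirt3, 4933412E12Rik and Tpm2 (0.98 each), and Cbfb with Marcks (0.97), 4930555A03Rik (0.96) and Klk8 (0.96). Among the members themselves the closest pairs were Etv6 and Erg (0.94) and Cbfb and Erg (0.93), and the lowest r was that of Cbfb and Lyl1 (-0.28).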

How the data were processed

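RNA of sorted mouse bone marrow cells was amplified by a SMART-Seq2 type protocol and sequenced in bulk. The deposited values are raw counts per gene in 2 tables, made by the authors by trimming with Trim Galore and mapping with HISAT2 (the submitters' notes give Trim Galore 0.6.7 and name both mm10 and mm9, and the methods mm10). The counting program and annotation are not given in the sources used here. Depth was 50458473 to 102148079 counts per library in the first table and 26776517 to 78682096 in the second, in which 2 broken lines were not used.

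Counts were fitted over all genes with edgeR 4.0.16 (R 4.3.3): filterByExpr, TMM scaling, quasi-likelihood tests, a prior count of 2 and Benjamini-Hochberg adjustment. A call needed an adjusted p under 0.05 and at least 2-fold. Genotypes were compared within each population, populations within each genotype, and genotype by population in one fit. DESeq2 1.42.0, RLE scaling, no filter, one fit of all libraries, no fold minimum, a replicate block and leaving out replicates were alternatives. Leaving out CLP replicates 2 and 3 and the 3 knockout-labelled libraries with 1128 to 6333 counts of Sting was chosen after seeing the data. Single members had two-sided exact permutation tests on log2(CPM + 1), whose smallest p is 0.0286 with 4 against 4 or 4 against 3 libraries and 0.1 with 3 against 3. In simulated data with 4-fold changes, edgeR recovered 142 of 200 genes for CMPs, 51 of 196 for LT-HSCs and 3 of 183 for Tet2;Sting DKO against Sting-/-. The test among WT populations recovered 54 of 200 with the change placed in CLPs alone. The interaction test recovered 36 of 200 with the change in Tet2-/- CMPs alone. All other groups shared 1 mean for each gene, so other patterns were not simulated.

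Named were all members, up to 4 called genes of each other list and comparison, every gene of the transcription factor network, and the 3 genes most alike to each member among those with at least 10 CPM in their highest group and a 4-fold range. Nfix was added once its values were known. The members and lists were chosen with earlier results of these data known. Exon lengths are those of GENCODE on mm10, and sequences are from RefSeq (GRCm38.p6). Plots were drawn with matplotlib 3.10.9 in Python 3.11.15.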

Additional observations from a re-analysis of the deposited data

Results flagged for a closer look

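Of 100 groups of 4 libraries examined (10 members by 10 groups), 8 had a library whose gap to the others exceeded Dixon's 95% critical value, where chance gives about 1 in 20. The highest library stood apart for Runx2 in Tet2-/- LT-HSCs (replicate 5, 73.1 CPM), Cbfb in WT CLPs (replicate 2, 82.5 CPM), Erg in WT CLPs (replicate 5, 4.72 CPM) and Ets1 in WT CLPs (replicate 2, 249.9 CPM). The lowest stood apart for Runx2 in WT CLPs (replicate 4, 0 CPM), Elf1 in Tet2-/- CMPs (replicate 5, 310.9 CPM), Elf1 in WT GMPs (replicate 3, 197.2 CPM) and Lyl1 in Tet2-/- CLPs (replicate 2, 4.08 CPM). Of the 8, 5 are CLP groups.

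The genotype effect on Lyl1 differed among the 6 populations (edgeR interaction test, adjusted p = 0.00121): called lower in Tet2-/- CMPs and MEPs, past the adjusted p but under 2-fold in GMPs, and not called in the other 3, with a log2 change of 2.26 in the opposite direction in LT-HSCs (adjusted p = 0.445).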

How the results depend on the processing

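Members called changed as follows. With DESeq2, 1 was called in LT-HSCs (Lyl1), 2 in MEPs (Lyl1 and Fli1), 1 between Tet2;Sting DKO and WT (Lyl1), 1 between Sting-/- and WT (Runx1) and 2 in the interaction (Lyl1 and Fli1). Of all genes in the interaction, DESeq2 called 1388 of 32443 and edgeR 592 of 22360. DESeq2 counts over all genes in the other comparisons named follow in the next paragraph. Without the fold minimum, 2 were called in CMPs and 2 in GMPs. One fit of all 46 libraries called 2 in MEPs (Lyl1 and Fli1) and 1 in CLPs (Etv6). Leaving out replicates gave 0 to 1 in GMPs, 0 to 1 in MEPs and 1 to 2 in the interaction (with Etv6 without WT replicate 3, with Erg without WT replicate 5). In GMPs the 1 was Lyl1 without Tet2-/- replicate 4 (-1.05), and in MEPs without Tet2-/- replicate 2 it was Fli1. The difference in the Runx1 share in LT-HSCs, 3.13 points, ranged from -0.783 (without WT replicate 3, a reversal) to 7.71 (without WT replicate 2). Over all settings of the main results, 203 kept their direction and side of the threshold, 16 were counted as moved and 1 as reversed. Single members named in the text kept theirs in 141 of 152.

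Counts of all genes called moved more than 1.5 times with DESeq2: 237 against 4 in LT-HSCs, 331 against 3 in ST-HSCs, 1234 against 734 in CMPs, 1049 against 651 in MEPs, 461 against 1 in CLPs, and 794, 1351 and 414 against 15, 64 and 0 in the second set. One fit of 46 libraries gave 20, 21, 285, 219, 423 and 1477 from LT-HSCs to CLPs, against 4, 3, 734, 723, 651 and 1. Without the low-count filter Tet2;Sting DKO gave 47 against Sting-/- and 105 against WT. Leaving out any 1 library took the 15 calls of Tet2;Sting DKO against Sting-/- to 0 and the 64 against WT to between 2 (without WT replicate 3 or Tet2;Sting DKO replicate 3) and 41 (without Tet2;Sting DKO replicate 1), and the 1 call in CLPs to 0 without WT replicate 2, 3 or 5. The cause was not tested.

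Replicate numbers were not taken as pairs, and the values were mixed: deviations of same-numbered WT and Tet2-/- libraries correlated between -0.06 and 0.13, and those of same-numbered populations within a genotype, which the labels do not tie to an animal, between -0.06 and 0.17 in WT (other numbers up to 0.11) and between -0.07 and 0.33 in Tet2-/- (other numbers up to 0.22). With the replicate block, members called were 0 in LT-HSCs, ST-HSCs, GMPs and CLPs and 1 each in CMPs and MEPs, and all genes called were 2, 2, 527, 658, 526 and 0 from LT-HSCs to CLPs. In the second set the block gave 0 members and 0, 26 and 0 genes. Runx2 in CMPs, past the adjusted p alone, had an adjusted p of 0.0841 with it, and among populations Erg in WT (0.0565) and Runx3 in Tet2-/- (0.0939) were lost. Libraries correlated best with their own number in 4 of 4 MEPs, 2 of 3 LT-HSCs, 2 of 4 CMPs and 2 of 4 GMPs. In ST-HSCs and CLPs none did.

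Depth limits low members: Erg in MEPs (4 to 188 counts a library) and Ets1 in MEPs (16 to 235) rest on few counts, and the second set has 3 libraries a group.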
